A study of Homo sapiens with 18 samples.

Results

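The mitotic kinases are protein kinases that drive cells into, through and out of mitosis, and 10 of them were followed here at the level of mRNA: CDK1, AURKA, AURKB, PLK1, BUB1, BUB1B, TTK, NEK2, MELK and PBK. They were chosen by name and comprise all probe sets that the platform annotation gives to these genes. They are 10 of the 19775 genes named on the array and 21 of its 54675 probe sets. All 10 were among the 13607 genes bright enough to be tested. AURKB and PLK1 reached that filter only because of the control LNCaP-abl arrays, so a difference between those arrays and the others was built into their selection.

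Total RNA was measured on 18 Affymetrix arrays in 6 groups of 3. LNCaP is a human prostate cancer cell line that responds to androgen, and LNCaP-abl is a line derived from it that grows without androgen. In LNCaP the groups were siRNA against TRIM24 (siTRIM24) with 10 nM dihydrotestosterone (DHT), control siRNA (sicontrol) with 10 nM DHT, siTRIM24 with vehicle (ethanol), and sicontrol with vehicle. In LNCaP-abl they were siTRIM24 with vehicle and sicontrol with vehicle, and no DHT group of that line was analysed here. Transfection lasted 48 h and hormone or vehicle 24 h. The protocol describes 48 h in medium with charcoal-stripped serum, which lacks steroid hormones, before treatment, and it names LNCaP for this step. The labels name no introduced allele, and all cells had received an siRNA. They give neither the siRNA sequences nor the source of the 3 replicates of a group. The p-values therefore reflect how far these arrays scatter, and that scatter may be purely technical.

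CDK1 with its cyclin partners starts mitosis by phosphorylating a large set of proteins. The Aurora kinases build the spindle (AURKA) and correct faulty attachments of chromosomes to it and help divide the cell (AURKB). PLK1 and NEK2 act at centrosomes, and PLK1 also at kinetochores and in cytokinesis. BUB1, BUB1B and TTK run the spindle assembly checkpoint, which holds cells before anaphase until every chromosome is attached. MELK and PBK are kinases made chiefly in dividing cells, with less settled substrates. Most of these genes are transcribed late in the cell cycle, when a repressor complex on their promoters (DREAM) is replaced by activating complexes with B-MYB and FOXM1. TRIM24 binds modified histones, can attach ubiquitin to proteins, and works with nuclear receptors such as the androgen receptor.

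The DNA elements behind that shared timing are short. The cell cycle genes homology region, here taken as TTTGAA, is the element that the DREAM and B-MYB complexes contact, and CCAAT is bound by the factor NF-Y. RefSeq sequences on GRCh38.p14 were matched by symbol for 7 of the 10 kinases, and the 150 bases before each annotated start were searched on both strands for these strings and for GGCGGG, a letter string common in GC-rich promoters. These 7 genes have 9 annotated starts, since CDK1 and AURKB have 2 windows each, and the shares are over windows. TTTGAA stood in 3 of the 9 windows, in 3 genes, against 7.33% of all 35116 promoters. With the variant TTTAAA counted as well, matches stood in 4 of the 9, in 3 genes, against 12.6%. CCAAT stood in 6 of the 9, in 5 genes, against 23.5%, and GGCGGG in 3 of the 9, against 36.6%. The sequences below show 1 window with both TTTGAA and CCAAT (PLK1), 1 with only TTTGAA of them (BUB1B) and a pair with only CCAAT (BUB1 and NEK2). Part of the window of the second CDK1 start is also shown. Capitals mark the TTTGAA matches and the CCAAT matches, where CCAAT reads ATTGG on the opposite strand. No marked matches share bases. PLK1 lies at chr16:23678739-23678888 on the plus strand, BUB1B at chr15:40160919-40161068 on the plus strand, BUB1 at chr2:110678064-110678213 on the minus strand and NEK2 at chr1:211675622-211675771 on the minus strand. For CDK1, 30 bases before its second annotated start are given, at chr10:60778448-60778477 on the plus strand. A match is a string of letters and not evidence that a factor binds there.
PLK1: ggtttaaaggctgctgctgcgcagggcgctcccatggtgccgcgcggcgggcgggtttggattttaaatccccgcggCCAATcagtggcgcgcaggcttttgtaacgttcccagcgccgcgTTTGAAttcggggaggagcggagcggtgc
BUB1B: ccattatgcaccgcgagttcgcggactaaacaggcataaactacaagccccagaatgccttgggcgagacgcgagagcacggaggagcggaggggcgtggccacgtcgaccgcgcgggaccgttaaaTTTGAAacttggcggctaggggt
BUB1: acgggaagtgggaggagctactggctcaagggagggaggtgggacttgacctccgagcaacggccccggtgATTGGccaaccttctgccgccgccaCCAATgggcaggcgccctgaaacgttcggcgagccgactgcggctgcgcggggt
NEK2: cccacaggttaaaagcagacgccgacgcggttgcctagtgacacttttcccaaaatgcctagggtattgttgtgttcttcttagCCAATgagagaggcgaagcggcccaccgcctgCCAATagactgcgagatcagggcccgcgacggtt
CDK1 second start: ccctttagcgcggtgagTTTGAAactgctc
In PLK1 the first base of TTTGAA stood at -29 from the annotated start, with CCAAT upstream of it at -73. In BUB1B TTTGAA stood at -23, with no CCAAT in the window. The second CDK1 window held 2 matches of TTTGAA and 2 of CCAAT. Neither the AURKB windows nor the MELK window held TTTGAA, and MELK held 4 matches of GGCGGG.

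Values are log2 expression values made with RMA, which summarises the probes of a probe set into 1 value, so a difference of 1 is 2-fold. RMA compresses dim values, and 5.88, the median of the table, was used as the filter on low values. Gene positions are those of RefSeq on GRCh38.p14. Each gene is given by its brightest probe set unless another is named, and no gene's level is set against another's. TRIM24 itself was at 25.1%, 22.7% and 23.6% of its control signal after siTRIM24, in LNCaP given vehicle, in LNCaP given DHT and in LNCaP-abl. Array medians lay between 5.83 and 5.93, arrays of a group correlated at 0.996 to 0.998 across probe sets, and the 3 arrays a group limit the precision. The SD of a kinase within a group had a median of 0.065 and ranged from 0.0079 to 0.202. Of 9 prostate luminal markers 7 to 9 were above the filter value in each group, and KLK3, which encodes prostate-specific antigen, was below it in LNCaP-abl. None of 3 basal markers was above it in any group. Of 6 fibroblast markers 1 to 3 were above it (COL1A1 in every group), of 3 endothelial markers 2 (PECAM1 and VWF in every group) and of 4 leukocyte markers 0 to 1 (CD3E). The list means over the arrays ran from 5.30 to 5.89, 5.39 to 5.73 and 4.35 to 4.59 in that order, and siTRIM24 and sicontrol had the same number of markers above the filter value in each setting.

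TRIM24 knockdown lowered 8 of the 10 kinases in LNCaP with vehicle, 9 in LNCaP with DHT and 9 in LNCaP-abl, and raised none of them in any of the 3 settings. All 10 fitted values were below 0 in each setting, so that 0 were higher at an unadjusted p under 0.05 as well. Among all genes tested, limma with Benjamini-Hochberg adjustment called 17.96% lower in vehicle-treated LNCaP, 20.8% with DHT and 28.8% in LNCaP-abl at an adjusted p under 0.05. The median log2 fold change of the kinases was -0.36, -0.50 and -1.50 in that order of settings, against 0.00, 0.01 and -0.01 over all genes tested. The siTRIM24 arrays lay wholly below the sicontrol arrays for 9 kinases in each setting, where 23.5%, 25.1% and 32.2% of all genes did so. A call with a fitted fall of at least 2-fold was made for 0 kinases under vehicle, for PBK under DHT and for 9 kinases in LNCaP-abl. The shares of all genes were 0.536%, 0.603% and 1.17%. AURKB is among the 9 in each LNCaP-abl count and was tested only through the sicontrol arrays of that setting. The fall of AURKB there was built into the selection, so the counts of 9 cannot be read in full against those shares. The 3 knockdown comparisons share no arrays with each other. Pooled RNA was measured, so fewer cells in mitosis and less of these mRNAs per cell cannot be told apart. A sign of RNA quality moved with the siRNA, namely how much brighter the GAPDH control probes read near the 3' end than near the 5' end. On the log2 scale it averaged 0.59 in siTRIM24 and 0.52 in sicontrol arrays given vehicle. It averaged 0.63 in siTRIM24 and 0.56 in sicontrol arrays given DHT, and 0.64 in siTRIM24 and 0.56 in sicontrol LNCaP-abl arrays. With that signal as a covariate the counts of kinases called lower were 4, 8 and 9. The same signal of the ACTB control probes was also higher after siTRIM24, at 2.05 in siTRIM24 and 1.87 in sicontrol arrays given vehicle, 2.19 in siTRIM24 and 1.85 in sicontrol arrays given DHT, and 1.99 in siTRIM24 and 1.87 in sicontrol LNCaP-abl arrays. With the ACTB signal as a covariate, an alternative chosen after seeing the data, the counts were 9, 8 and 9, with PLK1 then called lower under vehicle (-0.28, adjusted p = 0.0438) and BUB1B no longer under DHT (-0.35, adjusted p = 0.0543).

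**Figure D1:**
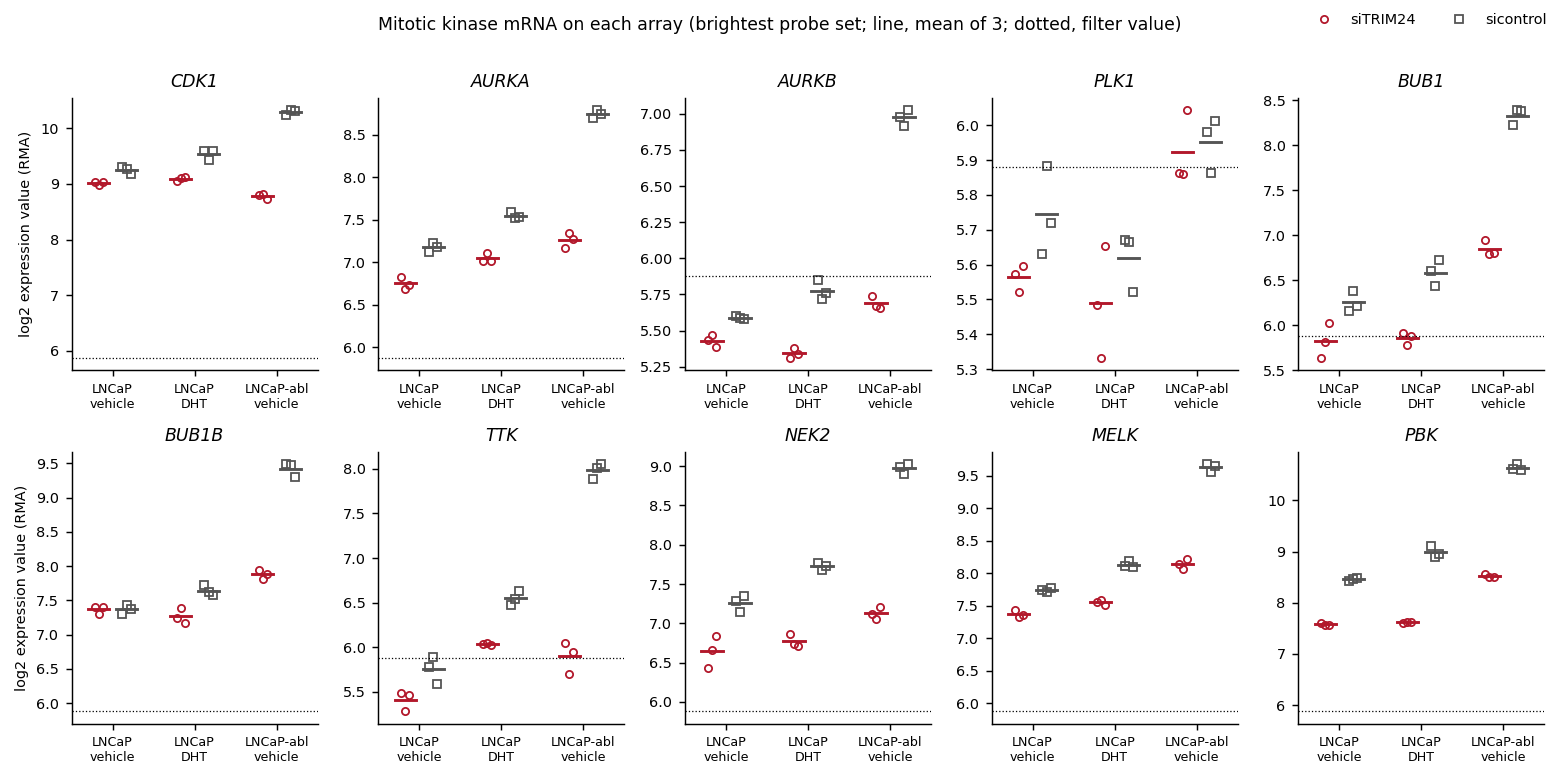
Each panel plots the log2 expression value of 1 kinase on the 18 arrays (red circles siTRIM24, grey squares sicontrol; lines are means of 3 arrays and the dotted line is the filter value of 5.88). Control LNCaP-abl arrays are highest for 9 of the 10 kinases, among them AURKB, which was tested only through those arrays. PLK1 spans the narrowest range.

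CDK1 (chr10:60778331-60794852), the kinase that starts mitosis, fell after siTRIM24 in each setting. It read 9.04, 8.98 and 9.04 in siTRIM24 cells with vehicle, against 9.30, 9.26 and 9.18 in sicontrol cells. With DHT it read 9.06, 9.10 and 9.12 in siTRIM24 cells and 9.60, 9.43 and 9.59 in sicontrol cells. In LNCaP-abl the siTRIM24 arrays were at 8.80, 8.82 and 8.73 and the sicontrol arrays at 10.25, 10.32 and 10.30. No siTRIM24 array reached any sicontrol array of its setting. The log2 fold changes were -0.23 ± 0.047 under vehicle, -0.45 ± 0.047 under DHT and -1.51 ± 0.047 in LNCaP-abl (SE, n = 3 per group; limma adjusted p = 0.00106, 1.16e-06 and 1.23e-12), so that 85.5%, 73.3% and 35.1% of the control signal was left. From high to low the group means ran from control LNCaP-abl at 10.29 through the 4 LNCaP groups to siTRIM24 LNCaP-abl at 8.78, and no neighbours in that order overlapped. CDK1 was the 1 kinase whose lowest group was siTRIM24 LNCaP-abl. A pair of further bright CDK1 probe sets, of kinds that can also bind related transcripts, gave -0.29 and -0.29 under vehicle, -0.54 and -0.58 under DHT, and -1.59 and -1.58 for LNCaP-abl. With the mean of the probe sets of the gene-specific kind, which brings in a dim one, the fall with vehicle was -0.13 (adjusted p = 0.166), and with the GAPDH covariate it was -0.19 (adjusted p = 0.0839).

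AURKA (chr20:56369390-56392215), the spindle-building Aurora kinase, also fell in each setting. Its siTRIM24 arrays read 6.83, 6.69 and 6.74 with vehicle, below the sicontrol arrays at 7.12, 7.22 and 7.18. With DHT the siTRIM24 arrays were at 7.01, 7.11 and 7.02 and the sicontrol arrays at 7.59, 7.52 and 7.53. In LNCaP-abl AURKA read 7.16, 7.35 and 7.28 after siTRIM24, against 8.69, 8.79 and 8.74 after sicontrol. Both LNCaP settings show a gap of similar size and LNCaP-abl a wider one. The log2 fold changes were -0.42 ± 0.051, -0.50 ± 0.051 and -1.48 ± 0.051 (SE, n = 3 per group; limma adjusted p = 5.74e-06, 9.3e-07 and 3.65e-12). In the order of group means, control LNCaP-abl at 8.74 and control LNCaP with DHT at 7.54 led, and only siTRIM24 LNCaP-abl at 7.26 and control LNCaP with vehicle at 7.18 overlapped as neighbours. A further AURKA probe set gave -0.39, -0.60 and -1.52.

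AURKB (chr17:8204731-8210575), the kinase of the chromosomal passenger complex, was dim in every group except control LNCaP-abl. It read 5.43, 5.47 and 5.39 in siTRIM24 cells with vehicle, against 5.60, 5.58 and 5.58 in sicontrol cells. With DHT the values were 5.31, 5.38 and 5.34 in siTRIM24 cells, against 5.85, 5.72 and 5.76 in sicontrol cells. LNCaP-abl gave 5.74, 5.67 and 5.65 after siTRIM24 and 6.98, 6.92 and 7.02 after sicontrol. The groups did not overlap in any setting, and 5 of the 6 group means were under 5.88, where changes are compressed. AURKB was tested only through the control LNCaP-abl arrays, so its fall in LNCaP-abl was built into the selection. The log2 fold changes were -0.16 ± 0.041, -0.43 ± 0.041 and -1.29 ± 0.041 (SE, n = 3 per group; limma adjusted p = 0.00567, 3.7e-07 and 1.37e-12). The fall with vehicle was not called when probe sets were averaged (-0.11, adjusted p = 0.138), with the intensity trend in the variances (-0.16, adjusted p = 0.133) or with the GAPDH covariate (-0.16, adjusted p = 0.0897). The other AURKB probe set stood at -0.05 under vehicle (adjusted p = 0.762), 0.10 under DHT (adjusted p = 0.521) and -0.52 in LNCaP-abl (adjusted p = 0.00136). In the order of means, only control LNCaP with DHT at 5.78 and siTRIM24 LNCaP-abl at 5.69 overlapped.

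PLK1 (chr16:23678889-23690367), the Polo kinase of centrosomes and kinetochores, was the exception among the 10. It passed in no knockdown comparison and was close to the filter value throughout. Its arrays read 5.57, 5.52 and 5.60 in siTRIM24 cells with vehicle, against 5.63, 5.88 and 5.72 in sicontrol cells. With DHT they read 5.48, 5.33 and 5.65 in siTRIM24 cells, against 5.67, 5.66 and 5.52 in sicontrol cells. LNCaP-abl read 5.86, 5.86 and 6.04 after siTRIM24 and 5.98, 5.86 and 6.01 after sicontrol. The arrays overlapped with DHT and in LNCaP-abl, and all neighbours in the order of its group means overlapped. Fitted log2 fold changes were -0.18 under vehicle (95% interval -0.35 to -0.01; limma adjusted p = 0.0923), -0.13 with DHT (-0.30 to 0.04; adjusted p = 0.228) and -0.03 in LNCaP-abl (-0.20 to 0.14; adjusted p = 0.797). Without the first sicontrol vehicle array PLK1 was at -0.24 with vehicle (adjusted p = 0.0475). In LNCaP-abl the interval leaves out a fall of the size seen for the other 9 kinases on this scale, but the only PLK1 probe set was so dim that its scale is compressed.

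NEK2 (chr1:211658256-211675621), the kinase that separates centrosomes at the entry into mitosis, fell in each setting and deepest in LNCaP-abl. It read 6.44, 6.66 and 6.84 in siTRIM24 cells with vehicle, and 7.28, 7.14 and 7.35 in sicontrol cells. With DHT it read 6.87, 6.74 and 6.72 in siTRIM24 cells, and 7.76, 7.68 and 7.73 in sicontrol cells. In LNCaP-abl the siTRIM24 arrays stood at 7.12, 7.06 and 7.20, far below the sicontrol arrays at 8.99, 8.90 and 9.03. NEK2 had log2 fold changes of -0.62 ± 0.081, -0.95 ± 0.081 and -1.85 ± 0.081 (SE, n = 3 per group; limma adjusted p = 1.61e-05, 1.26e-07 and 5.43e-11), which left 65.3%, 51.7% and 27.8% of the control signal. The fall in LNCaP-abl was the 31st largest of the 13607 genes tested. Its groups overlapped as neighbours between control LNCaP with vehicle and siTRIM24 LNCaP-abl (7.26 and 7.13) and between the siTRIM24 LNCaP groups with DHT and vehicle (6.77 and 6.64). The dimmer NEK2 probe set, under the filter, was at -0.27, -0.40 and -1.05.

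BUB1 (chr2:110637528-110678063), the checkpoint kinase that marks centromeric chromatin and recruits other checkpoint proteins, fell in each setting. With vehicle it read 5.64, 5.81 and 6.02 in siTRIM24 cells, against 6.16, 6.38 and 6.21 in sicontrol cells. With DHT the siTRIM24 arrays read 5.91, 5.78 and 5.88 and the sicontrol arrays 6.60, 6.43 and 6.72. In LNCaP-abl BUB1 read 6.95, 6.79 and 6.80 after siTRIM24, against 8.22, 8.39 and 8.38 after sicontrol. The siTRIM24 arrays with vehicle were more scattered than the others, with the third close to the lowest sicontrol array. The log2 fold changes were -0.43 ± 0.093, -0.73 ± 0.093 and -1.48 ± 0.093 (SE, n = 3 per group; limma adjusted p = 0.0017, 1.11e-05 and 3.56e-09). With the GAPDH covariate the fall with vehicle was -0.43 (adjusted p = 0.0512). Only the siTRIM24 LNCaP groups with DHT and with vehicle (5.86 and 5.83, both under the filter value) overlapped as neighbours. The 4 other BUB1 probe sets were under the filter.

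BUB1B (chr15:40161069-40221123), the checkpoint pseudokinase BUBR1, was unlike BUB1 in LNCaP without hormone. Its siTRIM24 arrays with vehicle read 7.40, 7.30 and 7.40 and overlapped the sicontrol arrays at 7.31, 7.43 and 7.38. With DHT it read 7.25, 7.39 and 7.16 in siTRIM24 cells, below 7.72, 7.63 and 7.57 in sicontrol cells. In LNCaP-abl it read 7.94, 7.81 and 7.89 after siTRIM24, against 9.49, 9.48 and 9.29 after sicontrol. Under vehicle its log2 fold change was -0.0035, with a 95% interval of -0.14 to 0.14 (n = 3 per group; limma adjusted p = 0.975). It was -0.37 ± 0.066 with DHT and -1.54 ± 0.066 in LNCaP-abl (SE; limma adjusted p = 2.53e-04 and 3.77e-11), which left 77.2% and 34.3% of the control signal. The lower 3 of its groups, control LNCaP with vehicle (7.37) and siTRIM24 LNCaP with vehicle (7.37) and with DHT (7.27), overlapped as neighbours.

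TTK (chr6:80004649-80042527), the kinase that switches the checkpoint on at unattached kinetochores, had one of the deepest falls in LNCaP-abl. With vehicle it read 5.49, 5.28 and 5.46 in siTRIM24 cells, against 5.78, 5.89 and 5.59 in sicontrol cells. With DHT the siTRIM24 arrays read 6.03, 6.05 and 6.03 and the sicontrol arrays 6.47, 6.54 and 6.63. In LNCaP-abl the siTRIM24 arrays stood at 6.05, 5.70 and 5.95, and the sicontrol arrays at 7.88, 8.01 and 8.05. Both groups with vehicle in LNCaP were under the filter value on average. For TTK the log2 fold changes were -0.34 ± 0.088, -0.51 ± 0.088 and -2.08 ± 0.088 (SE, n = 3 per group; limma adjusted p = 0.00583, 2.05e-04 and 3.64e-11), and the fall in LNCaP-abl was the 11th largest of all genes tested. TTK was the kinase most moved by the GAPDH covariate, which put it at -0.14 with vehicle (adjusted p = 0.47) and -0.30 with DHT (adjusted p = 0.137). In the order of means, siTRIM24 LNCaP-abl at 5.90 overlapped both its neighbours, siTRIM24 LNCaP with DHT at 6.04 and control LNCaP with vehicle at 5.75.

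MELK (chr9:36572895-36677682), a kinase of the AMPK-related family with high mRNA in dividing cells, gave tight groups. With vehicle it read 7.43, 7.33 and 7.36 in siTRIM24 cells, against 7.74, 7.72 and 7.78 in sicontrol cells. With DHT it read 7.56, 7.58 and 7.51 in siTRIM24 cells, against 8.11, 8.18 and 8.10 in sicontrol cells. In LNCaP-abl it read 8.14, 8.07 and 8.23 after siTRIM24, against 9.68, 9.56 and 9.64 after sicontrol. MELK had log2 fold changes of -0.37 ± 0.045, -0.58 ± 0.045 and -1.48 ± 0.045 (SE, n = 3 per group; limma adjusted p = 5.6e-06, 3.72e-08 and 1.04e-12). Only siTRIM24 LNCaP-abl and control LNCaP with DHT, with means of 8.15 and 8.13, overlapped as neighbours in the order of levels.

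PBK, a mitotic kinase that CDK1 activates, had the largest fitted fall of the 10 in each setting. With vehicle it read 7.60, 7.56 and 7.57 in siTRIM24 cells, against 8.42, 8.47 and 8.48 in sicontrol cells. With DHT the siTRIM24 arrays stayed at 7.60, 7.62 and 7.63, while the sicontrol arrays read 9.10, 8.90 and 8.95. In LNCaP-abl it read 8.57, 8.50 and 8.50 after siTRIM24, against 10.61, 10.71 and 10.59 after sicontrol. The arrays of no neighbouring groups overlapped in the order of its levels. PBK had log2 fold changes of -0.88 ± 0.047, -1.37 ± 0.047 and -2.11 ± 0.047 (SE, n = 3 per group; limma adjusted p = 5.88e-10, 4.06e-12 and 4.42e-14), so that PBK kept 54.3%, 38.7% and 23.1% of its control signal. They were the 121st, the 17th and the 6th largest falls among the 13607 genes. TTK was close to PBK in LNCaP-abl at -2.08 ± 0.088 (SE), and the difference between them was not tested.

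**Figure D2:**
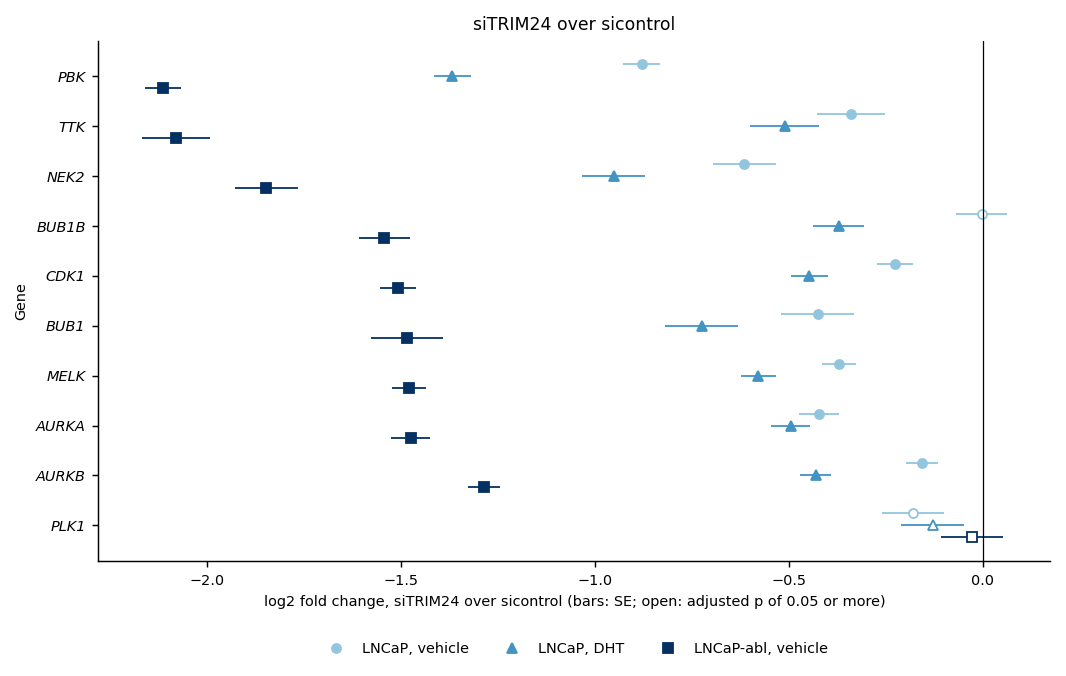
The log2 fold change of siTRIM24 over sicontrol is plotted for the 10 kinases in vehicle-treated LNCaP (circles), DHT-treated LNCaP (triangles) and LNCaP-abl (squares), with bars of 1 SE and open symbols where the adjusted p was 0.05 or more. For 9 kinases the square is furthest left, between -1.29 and -2.11, and PLK1 lies near 0 in LNCaP-abl.

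For 9 of the 10 kinases the fitted knockdown value was deeper with DHT than with vehicle, and deepest in LNCaP-abl. The share of all genes in that order was not computed. For NEK2, BUB1, TTK and AURKA the step between vehicle and DHT did not pass its test. The difference between settings was tested with interaction terms, each of which uses the sicontrol arrays of both settings. Between LNCaP-abl and LNCaP, both with vehicle, the fall was called deeper for 9 kinases, where 19.9% of all genes were called with a lower term. The terms ran from -1.05 ± 0.072 for AURKA (limma adjusted p = 8.58e-08) to -1.54 ± 0.093 for BUB1B (adjusted p = 2.34e-08) and -1.74 ± 0.12 for TTK (adjusted p = 1.27e-07), and PLK1 was at 0.15 (adjusted p = 0.346). All 9 were called with a fitted term of at least a further 2-fold, against 0.772% of genes. A test against 2-fold was not run, and the 95% intervals of AURKA, BUB1, MELK and NEK2 include less than 2-fold. In LNCaP with vehicle, TTK and AURKB had both group means under the filter value, and BUB1 its siTRIM24 mean. Folds are compressed there, which can enlarge the terms of these kinases. The median was -1.18 over the kinases and -0.03 over all genes. AURKB, tested only through its control LNCaP-abl arrays, is among the 9, and with the filter set on the other arrays 8 of 8 kinases were called.

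Between DHT and vehicle in LNCaP, the interaction terms were smaller and passed for 5 kinases, against 5.70% of genes called with a lower term. PBK had the largest, -0.49 ± 0.066 (limma adjusted p = 2.61e-04), followed by BUB1B at -0.37 ± 0.093 (adjusted p = 0.0188) and AURKB at -0.27 ± 0.058 (adjusted p = 0.00628). CDK1 and MELK were near the threshold, at -0.22 ± 0.066 (adjusted p = 0.0431) and -0.21 ± 0.063 (adjusted p = 0.0457). Both were not called in many of the alternatives, and without the first siTRIM24 vehicle array they had adjusted p-values of 0.093 and 0.116. AURKB was at -0.06 (adjusted p = 0.694) when its probe sets were averaged. NEK2 at -0.34 (adjusted p = 0.0747), BUB1 at -0.30 (0.165), TTK at -0.17 (0.424), AURKA at -0.07 (0.573) and PLK1 at 0.05 (0.828) did not pass.

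DHT, set against vehicle in LNCaP with control siRNA, raised 9 of the 10 kinases, where 19.4% of all genes were called higher. The rises were under 2-fold. TTK rose the most, by 0.80 ± 0.088 on the log2 scale (limma adjusted p = 1.53e-06), followed by PBK at 0.53 ± 0.047 (adjusted p = 1.13e-07), NEK2 at 0.47 ± 0.081 (adjusted p = 1.86e-04) and MELK at 0.38 ± 0.045 (adjusted p = 2.47e-06). AURKA, BUB1, CDK1, BUB1B and AURKB lay between 0.37 and 0.19, and the DHT arrays of all 9 kinases lay above the vehicle arrays, as 22.03% of all genes did. AURKB was at 0.06 (adjusted p = 0.361) when its probe sets were averaged. PLK1 was at -0.12 ± 0.080 and did not pass (adjusted p = 0.226), and no other kinase was below 0. These control LNCaP arrays are the same as in the knockdown comparisons, so the DHT and knockdown values of a kinase are not independent.

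In cells with siTRIM24, DHT raised 3 kinases, TTK by 0.62 ± 0.088 (limma adjusted p = 2.22e-05), AURKA by 0.30 ± 0.051 (adjusted p = 1.58e-04) and MELK by 0.18 ± 0.045 (adjusted p = 0.00389), where 16.9% of genes were called higher. PBK was at 0.04 (95% interval -0.06 to 0.14), CDK1 at 0.07 (-0.03 to 0.17), NEK2 at 0.13 (-0.04 to 0.30) and BUB1 at 0.03 (-0.17 to 0.23). AURKB, PLK1 and BUB1B were at -0.09, -0.07 and -0.10 and did not pass. The median over the 10 was 0.06 with siTRIM24, against 0.35 with sicontrol; over all genes tested both medians were -0.04. Whether DHT acted differently with the siRNAs is the same interaction term as above, which passed for CDK1, AURKB, BUB1B, MELK and PBK.

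**Figure D3:**
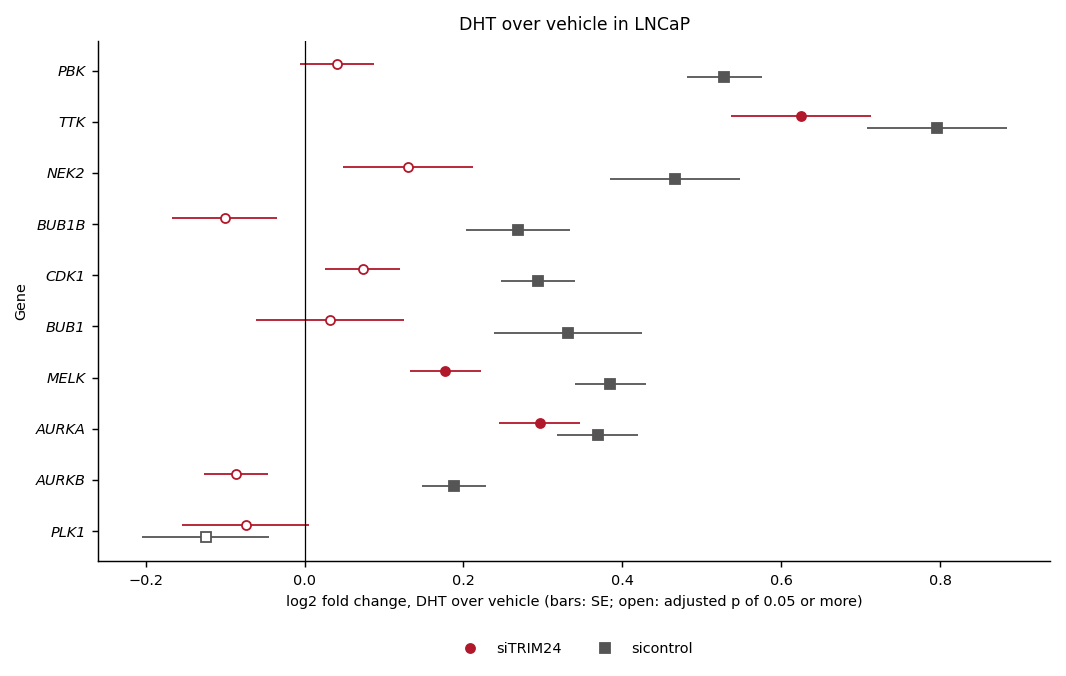
The log2 fold change of DHT over vehicle in LNCaP is plotted for each kinase with siTRIM24 (red circles) and sicontrol (grey squares), with bars of 1 SE and open symbols where the adjusted p was 0.05 or more. With sicontrol 9 kinases lie between 0.19 and 0.80, and with siTRIM24 only TTK, AURKA and MELK are filled.

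Control LNCaP-abl cells had more mRNA of all 10 kinases than control LNCaP cells with vehicle, where 29.1% of genes were called higher. AURKB and PLK1 were tested only because of the control LNCaP-abl arrays, so their higher values there were built into the selection and the count of 10 cannot be read against that share. With the filter set on the other 15 arrays, chosen after seeing the data, 8 of 8 kinases were called higher, and 8 of 8 against LNCaP with DHT. Apart from PLK1 the differences were 2.06-fold to 4.69-fold, at log2 1.04 ± 0.047 for CDK1 up to 2.23 ± 0.088 for TTK and 2.18 ± 0.047 for PBK (SE, n = 3 per group; limma adjusted p = 8.15e-12, 1.64e-12 and 8.72e-16). The arrays of 9 kinases did not overlap, as for 30.6% of genes. A call with a fitted difference of at least 2-fold was made for 9, against 4.91% of genes, with AURKB among the 9 each time. PLK1 was at 0.21 ± 0.080 (adjusted p = 0.0338) with overlapping arrays, and that call was lost in several alternatives, stricter thresholds among them. Without the first or the third control LNCaP-abl array PLK1 was at 0.19 (adjusted p = 0.0852) and 0.18 (adjusted p = 0.109), and without the first or the third control LNCaP array at 0.15 (adjusted p = 0.15) and 0.19 (adjusted p = 0.0838). With the intensity trend it was at 0.21 (adjusted p = 0.0697) and with the GAPDH covariate at 0.18 (adjusted p = 0.128). The median over the kinases was 1.80, against -0.02 over all genes. For 9 kinases the control LNCaP-abl arrays lay above all 15 other arrays. AURKB, favoured by its selection, is among these 9, and the share of all genes was not computed. The control LNCaP-abl arrays also enter the knockdown in LNCaP-abl and its interaction with cell line. The values of a kinase in these comparisons are therefore not independent.

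DHT in LNCaP left a gap to LNCaP-abl for all 10 kinases, AURKB and PLK1 again included by selection, where 33.2% of genes were called higher in LNCaP-abl. LNCaP-abl stayed 1.68-fold to 3.44-fold higher for the 9 other than PLK1, with CDK1 the nearest at 0.75 ± 0.047 (limma adjusted p = 4.49e-10) and BUB1B the farthest at 1.78 ± 0.066 (adjusted p = 4.64e-13). PLK1 was at 0.33 ± 0.080 (adjusted p = 0.00167). LNCaP-abl had vehicle in this comparison, so the lines differed in hormone too.

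After siTRIM24 in both lines, LNCaP-abl was higher than LNCaP for 9 kinases, where 29.6% of genes were called higher, and lower for CDK1, where 40.2% were called lower. BUB1 kept the widest gap at 1.02 ± 0.093 (limma adjusted p = 6.3e-08), followed by PBK at 0.95 ± 0.047 (adjusted p = 2.96e-11) and MELK at 0.77 ± 0.045 (adjusted p = 1.92e-10). AURKA, BUB1B, TTK and NEK2 lay between 0.48 and 0.51, PLK1 was at 0.36 and AURKB at 0.26. CDK1 was at -0.24 ± 0.047 (adjusted p = 2.64e-04). Averaging its probe sets put it at -0.06 (adjusted p = 0.31), and its most variable probe set at -0.05 (adjusted p = 0.371). The median over the 10 was 0.50 with siTRIM24 and 1.80 with sicontrol.

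Set beside vehicle-treated control LNCaP without a test, siTRIM24 LNCaP-abl arrays lay above the control LNCaP vehicle arrays for 5 kinases, below them for CDK1 and among them for the other 4. The differences of means were 0.59 for BUB1, 0.51 for BUB1B and 0.40 for MELK, 0.10 for AURKB and 0.07 for PBK, and -0.47 for CDK1. AURKA, PLK1, TTK and NEK2 overlapped. Of the 6 groups, siTRIM24 LNCaP with vehicle was the lowest for 6 kinases and siTRIM24 LNCaP with DHT for 3. No share over all genes was computed for the counts in this paragraph, so they only describe these kinases.

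**Figure D4:**
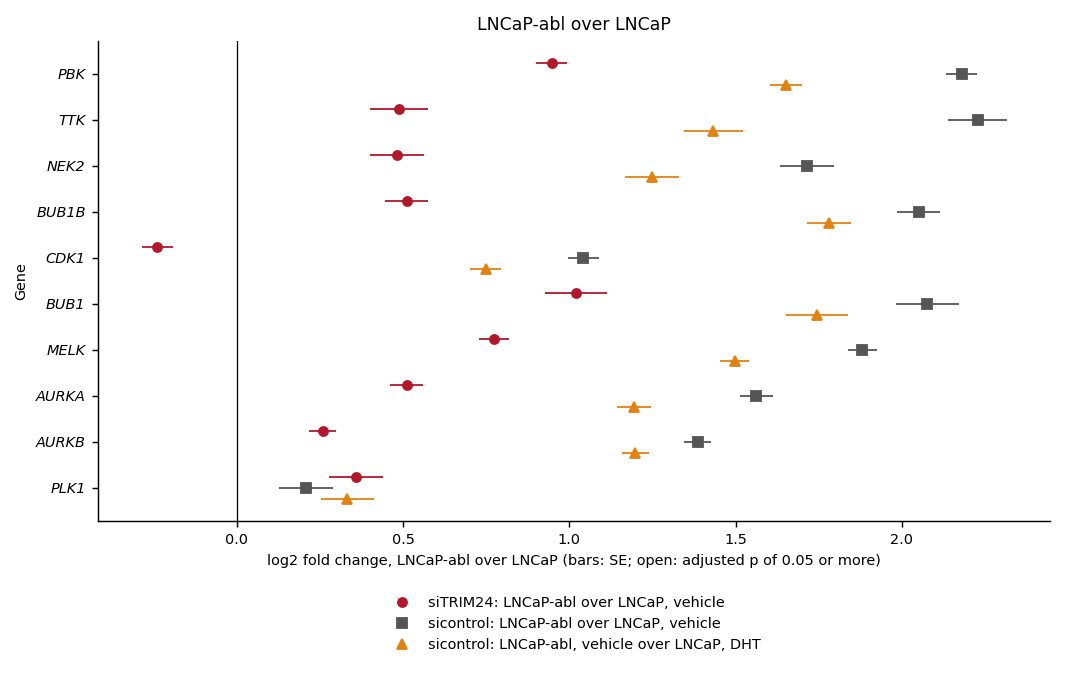
The log2 fold change of LNCaP-abl over LNCaP is plotted for each kinase with siTRIM24 (red circles), with sicontrol and vehicle (grey squares), and for sicontrol LNCaP-abl with vehicle over sicontrol LNCaP with DHT (orange triangles), with bars of 1 SE. All red circles lie left of the grey squares except that of PLK1, and CDK1 is left of 0.

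The cyclins and regulators of CDK1 moved in part with it. Among all genes tested, limma called 20.5% higher under vehicle, 19.4% under DHT and 16.7% in LNCaP-abl, beside the shares of lower calls given above, and these are the rates against which the counts of the gene lists stand. Of 14 tested members 11 fell and 0 rose in LNCaP-abl, 8 fell and 2 rose in LNCaP with DHT, and 6 fell and 3 (CKS1B, CKS2 and WEE1) rose with vehicle, with medians of -0.68, -0.29 and -0.10. The mitotic cyclin CCNB1, which activates CDK1, fell by 1.77 ± 0.050 in LNCaP-abl, 0.59 ± 0.050 with DHT and 0.66 ± 0.050 with vehicle (limma adjusted p = 6.13e-13, 1.11e-07 and 3.33e-08). CCNA2, the S and G2 phase cyclin, fell by 2.11, 1.12 and 0.97, and CCNB2 fell by 1.72, 0.89 and 0.71, in the same order. MASTL, the Greatwall kinase that restrains PP2A in mitosis, fell by 1.26 in LNCaP-abl and by 0.25 with DHT, and was at 0.07 with vehicle (adjusted p = 0.44). CKS2, a small subunit of CDK complexes, fell by 0.98 in LNCaP-abl and by 0.14 with DHT and rose by 0.19 with vehicle.

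Partners of the Aurora kinases fell in every setting. Of 13 genes 10 were bright enough to be tested, and of these 9 fell in LNCaP-abl, 8 with DHT and 8 with vehicle, with 0 higher and medians of -1.48, -0.61 and -0.46. TPX2, which activates AURKA on spindle microtubules, fell by 1.61 ± 0.091, 0.81 ± 0.091 and 0.84 ± 0.091 (limma adjusted p = 9.25e-10, 2.52e-06 and 1.97e-06). BIRC5, the survivin subunit that holds AURKB at centromeres, fell by 1.65, 0.87 and 0.73 in the same order. KIF20A, a kinesin of cytokinesis, fell by 1.99, 1.03 and 0.79, and SGO2, which protects centromeric cohesion, by 2.04, 1.14 and 1.07.

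Checkpoint partners of BUB1, BUB1B and TTK fell in LNCaP-abl for 11 of 13 genes, with DHT for 10 and with vehicle for 7, where MAD1L1 rose, and the medians were -1.38, -0.43 and -0.32. KNL1, the kinetochore scaffold that TTK phosphorylates and BUB1 binds, fell by 2.26 ± 0.10, 0.86 ± 0.10 and 0.54 ± 0.10 (limma adjusted p = 5.43e-11, 3.67e-06 and 4.12e-04). KNL1 was tested only through its control LNCaP-abl arrays, which built its fall in LNCaP-abl into the selection, and all 4 LNCaP group means lay under the filter value, where folds are compressed. SPC25 of the same list and CDC25C among the regulators of CDK1 were likewise tested only through those arrays and are in the counts. CDC20, the target of the checkpoint, fell by 2.06, 0.91 and 0.69, and NDC80, the microtubule binder of the outer kinetochore, by 2.09, 0.97 and 0.72. CENPE, a kinetochore motor, fell by 1.89, 0.59 and 0.61.

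Other kinases of mitosis and the cell cycle were mixed. Of 19 tested 14 fell and 2 rose in LNCaP-abl, 9 fell and 3 rose with DHT, and 3 fell and 5 (NEK7, NEK9, CHEK2, CDK2 and SLK) rose with vehicle, with medians of -0.23, -0.13 and -0.01. PLK4, which starts centriole duplication, fell by 1.30 ± 0.12 in LNCaP-abl (limma adjusted p = 2.63e-07) and was at -0.27 with DHT (adjusted p = 0.0813) and 0.06 with vehicle (adjusted p = 0.762). CHEK1, the DNA damage checkpoint kinase, fell by 0.88 in LNCaP-abl and 0.31 with DHT and was at -0.06 with vehicle (adjusted p = 0.413). CHEK2 fell by 0.42 in LNCaP-abl and rose by 0.32 with DHT and 0.25 with vehicle. NEK9, a kinase upstream of NEK6 and NEK7, rose in all 3 settings, by 0.24, 0.10 and 0.27, and AURKC, the germline Aurora kinase, rose by 0.27 in LNCaP-abl (adjusted p = 0.033).

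The anaphase-promoting complex and its regulators had 15 tested members, of which 11 fell in LNCaP-abl, 5 with DHT and 7 with vehicle, and 0 rose, with medians of -0.19, -0.05 and -0.10. The ubiquitin-conjugating enzyme UBE2C fell by 1.70 ± 0.037, 0.57 ± 0.037 and 0.23 ± 0.037 (limma adjusted p = 4.29e-14, 4.9e-09 and 1.1e-04), and its substrate securin, PTTG1, by 1.41, 0.82 and 0.68. The core subunit CDC23 fell by 0.55, 0.80 and 0.83, and its interaction term with cell line was 0.28 (adjusted p = 0.00432), opposite in sign to those of the 9 kinases. Of 15 phosphatase genes that oppose these kinases 8 fell and 3 rose in LNCaP-abl, 4 fell and 2 rose with DHT, and 3 fell and 3 rose with vehicle. PPP2R1B, a scaffold subunit of PP2A, rose by 0.68 ± 0.038, 1.18 ± 0.038 and 1.26 ± 0.038 (limma adjusted p = 6.88e-10, 1.91e-12 and 8.18e-13), and PPP1CB, a catalytic subunit of PP1, fell by 0.52, 0.60 and 0.33.

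Transcription factors and complexes of late cell cycle genes moved in both directions. Of 15 tested 8 fell and 3 rose in LNCaP-abl, 6 fell and 1 rose with DHT, and 5 fell and 2 rose with vehicle, with medians of -0.29, -0.12 and -0.02. FOXM1 fell by 1.17 ± 0.087, 0.57 ± 0.087 and 0.44 ± 0.087 (limma adjusted p = 2.42e-08, 5.82e-05 and 6.6e-04). LIN52, a subunit of the DREAM core, fell by 0.68, 0.81 and 0.45, and E2F5, a repressor E2F, by 0.92, 0.58 and 0.61. MYBL2, which encodes B-MYB, fell by 0.40 in LNCaP-abl and was at -0.16 and -0.14 in LNCaP with DHT and vehicle (adjusted p = 0.0595 and 0.0976). RBL2, the p130 subunit of DREAM, rose by 0.22 in LNCaP-abl and 0.31 with DHT, and CDKN1A, the CDK inhibitor p21, rose by 0.15 in LNCaP-abl and fell by 0.12 with DHT.

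**Figure D5:**
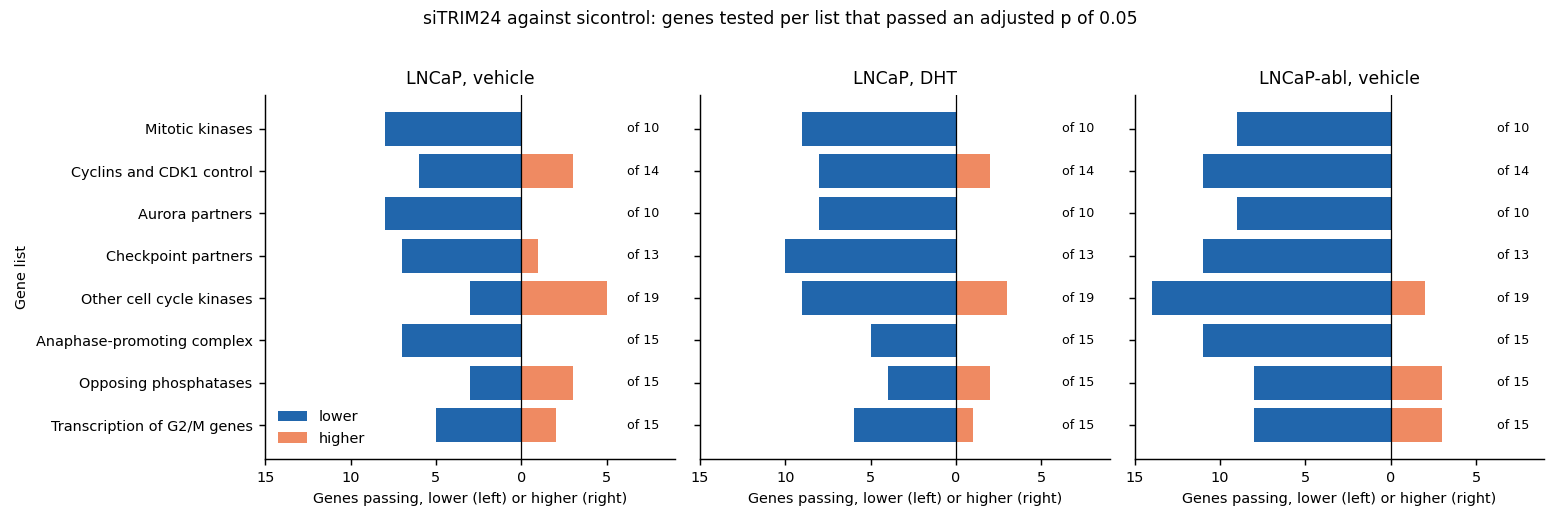
Bars give the number of tested genes called lower (blue, to the left) and higher (orange, to the right) after siTRIM24 in each list, for vehicle-treated LNCaP, DHT-treated LNCaP and LNCaP-abl; the number tested stands at the right. In the Aurora partners 9 of 10 were lower in LNCaP-abl and 0 were higher in any panel.

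Over the 18 arrays the kinases varied together, apart from PLK1. Pearson correlations between pairs without PLK1 had a median of 0.95 and ranged from 0.787 to 0.983 over 36 pairs. The 9 pairs with PLK1 ranged from 0.323 to 0.742, but PLK1 was close to the filter value throughout, where values are compressed. AURKB was tested only through the control LNCaP-abl arrays, so its correlations were partly fixed by the filter. Correlations between pairs of other genes were not computed for comparison. AURKA, at 0.99, was closest to the mean of the other members, CDK1 was at 0.876 and PLK1 at 0.629. Outside the 10, the genes most like their mean were FANCI (r = 0.993), KIF23 (r = 0.991), UBE2C (r = 0.99), MND1, SPAG5, ZWINT, NUSAP1, CDCA3, FAM83D and CENPU, the last at 0.986. KIF23 and MND1 were above the filter value in control LNCaP-abl alone (means of 6.36 and 6.69) and were tested only through it, so their likeness was partly fixed by the filter. The most opposed were TMC4 (r = -0.978), PTTG1IP (r = -0.957), RER1 (r = -0.957), IFNGR1 (r = -0.953) and VPS13C (r = -0.947). Of 13597 other genes 69 had a correlation of at least 0.95. FANCI averaged 7.68 in siTRIM24 LNCaP-abl and 9.12 in control LNCaP-abl, and 7.12 in siTRIM24 and 7.60 in control LNCaP with vehicle. The 18 arrays form 6 groups of 3 and share one normalization, so the points behind each correlation are not independent.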

How the data were processed

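Messenger RNA was measured on 18 Affymetrix arrays, 6 groups of 3, grouped by the labels. The deposited table holds log2 values per probe set, which the authors obtained by RMA according to the submitters' processing notes, and its version is not given in the sources used here. No scanner files were used, and arrays have no read depth. Of 54675 probe sets 41097 had 1 gene symbol, 1801 several and 11777 none in the platform annotation, and 41043 symbols were updated through the gene ID. Each gene was given by its probe set with the highest mean, and 13607 genes were tested whose third-highest value reached the table's median of 5.88.

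All 6 groups were fitted in 1 model with limma 3.58.1 in R 4.3.3, leaving 12 residual degrees of freedom, and p-values were two-sided and adjusted by Benjamini-Hochberg over all genes tested within a comparison. A call is an adjusted p under 0.05. Contrasts and interaction terms came from that fit, which was tested on simulated data first. The 10 kinases and the gene lists were chosen with earlier results of these data known. Named genes were the kinases, TRIM24, up to 6 called members of each list with the smallest adjusted p in LNCaP-abl and its members called higher there, the 10 genes most like the kinases' mean and the 5 most opposed; MAD1L1, CKS1B, WEE1, NEK7, CDK2, SLK, KLK3, SPC25, CDC25C, COL1A1, PECAM1, VWF and CD3E were named after their values were seen. The 15 alternatives concerned the filter, the choice of probe set, the scaling, the variance model, the samples fitted, array weights, a replicate block, an RNA-quality covariate and the threshold, and each of the 18 arrays was also left out in turn. A covariate for ACTB and a filter set without the control LNCaP-abl arrays were added after seeing the data.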

Additional observations from a re-analysis of the deposited data

Results flagged for a closer look

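For 9 kinases between the lines and 5 between DHT and vehicle, the knockdown effect differed by the limma interaction term. That term tests the difference itself, and 19.9% and 5.70% of all genes were called lower by it. PLK1 passed neither test, and AURKA, BUB1, TTK and NEK2 did not pass the one with DHT. In LNCaP with vehicle TTK, AURKB and BUB1 were dim, which can enlarge their terms between the lines. Between LNCaP-abl and LNCaP, both with vehicle, the log2 terms were -1.74 for TTK, -1.54 for BUB1B, -1.28 for CDK1, -1.23 for PBK, -1.23 for NEK2, -1.13 for AURKB, -1.11 for MELK, -1.06 for BUB1 and -1.05 for AURKA, each a deeper fall in LNCaP-abl. The adjusted p-values ran from 5.2e-09 for CDK1 to 3.27e-05 for BUB1. AURKB was tested only through its control LNCaP-abl arrays. Between DHT and vehicle in LNCaP the terms were -0.49 for PBK, -0.37 for BUB1B, -0.27 for AURKB, -0.22 for CDK1 and -0.21 for MELK, each a deeper fall with DHT. CDK1 and MELK were near the threshold and lost their calls in many of the alternatives. AURKB was at -0.06 (limma adjusted p = 0.694) when its probe sets were averaged.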

How the results depend on the processing

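The 9 kinases called lower by knockdown in LNCaP-abl, the 9 with a deeper fall there than in LNCaP, and the 10 higher in LNCaP-abl than in LNCaP with DHT kept counts within 1.5 times of these under all 15 alternatives and under 2 chosen after seeing the data, the ACTB covariate and the filter set without the control LNCaP-abl arrays. A limit of 1.5-fold beside the adjusted p left 2 kinases lower by knockdown with vehicle and 3 with DHT, 1 higher with DHT for each siRNA, 3 higher and 0 lower in LNCaP-abl than in LNCaP after siTRIM24, and 0 with the interaction of knockdown and DHT. With vehicle, 4 kinases were lower with the GAPDH covariate and 4 with the mean of gene-specific probe sets, where AURKA and BUB1 fell under the filter and 8 kinases were tested, CDK1 (adjusted p = 0.166) and AURKB (-0.11, adjusted p = 0.151) losing their call. CDK1 was called lower in siTRIM24 LNCaP-abl than siTRIM24 LNCaP by neither average of probe sets nor the most variable one (0 kinases each). The interaction of knockdown and DHT, with 5 calls, had 3 with no filter, with averaged probe sets, with every probe set tested alone, with the replicate block and with either covariate, and 2 with gene-specific probe sets and at an adjusted p under 0.01. Leaving out 1 array gave 2 to 5 calls for it, 8 to 9 for knockdown with vehicle, 9 for knockdown with DHT and in LNCaP-abl, 3 to 4 for DHT with siTRIM24 and 9 to 10 for LNCaP-abl against LNCaP with vehicle. Fewest were called without the third siTRIM24 DHT array, where BUB1B was at -0.32 (adjusted p = 0.0509), and NEK2 passed without the first siTRIM24 vehicle array at -0.44 (adjusted p = 0.0119). The causes were not tested.

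Values near 0 that no fit called changed sign. BUB1B under knockdown with vehicle was at 0.00997 with the ACTB covariate, 0.0039 with centred arrays and 1.6e-04 with array weights, and between -0.037 and 0.029 with an array left out. PLK1 under knockdown in LNCaP-abl lay between -0.089 and 0.0017 with an array left out. For DHT with siTRIM24, AURKB was at 0.0048 with either average of probe sets, PLK1 lay between -0.16 and 0.0041 and BUB1 between -0.062 and 0.13 with an array left out. The PLK1 interaction of knockdown and DHT lay between -0.031 and 0.13, and at -0.0341 with the ACTB covariate.

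Same-numbered arrays showed no consistent likeness: of 24 correlations of deviations from group means, from -0.297 to 0.196, 4 were over 0.1. The labels do not give the source of the replicates, so this check cannot exclude a pairing. The replicate block changed the calls of CDK1 (adjusted p = 0.0648) and MELK (adjusted p = 0.0596) in the interaction with DHT and no other count of kinases by over 1.5 times. Over all genes, knockdown in LNCaP-abl called 3925 lower, against 6721 of the probe sets tested alone, 2249 with the GAPDH covariate and 529 at 1.5-fold. With vehicle 2444 were lower, against 4225 of the probe sets and 368 at 1.5-fold, and with DHT 2824, against 4877 of the probe sets, 1663 with the GAPDH and 1730 with the ACTB covariate and 385 at 1.5-fold. The interaction with DHT had 775 lower, against 469 with no filter, 464 with gene-specific probe sets, 480 without the first siTRIM24 vehicle array, 313 at an adjusted p under 0.01 and 46 at 1.5-fold. Signal over background limits AURKB, PLK1, BUB1 and TTK, and of the other genes KNL1, PLK4, KIF20A, CCNA2, CENPE, MASTL, SGO2 and TPX2, whose dim group means compress folds.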
